A study of Mus musculus with 12 samples.

Results

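Promoters of long intergenic noncoding RNAs (lincRNAs) that lie far from protein-coding genes were examined for replication origin firing in mouse embryonic stem cells (ESCs). Members were the autosomal genes annotated as lincRNA in GENCODE M21 (genome build mm10) whose most upstream transcription start site (TSS) was more than 50 kb from any protein-coding TSS and outside protein-coding gene bodies. The distance rule kept 2711 of 5209 autosomal lincRNA genes, and the gene body rule kept 2667 of these. The rule uses the annotation alone and no measured value. The members lay on all 19 autosomes, 55 to 244 on each, with 1352 on the plus and 1315 on the minus strand. The nearest protein-coding TSS was at a median distance of 151 kb (50.1 to 2334 kb), and the median gene length was 11.1 kb (0.205 to 666 kb). At the limit itself, Gm43388 (50.1 kb) was the nearest TSS kept and Gm39464 (49.98 kb) the farthest left out.

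Okazaki fragment sequencing (OK-seq) was done in naive ESCs, kept in LIF and 2 kinase inhibitors (2i), and in epiblast-like cells (EpiLCs), obtained by withdrawal of both. Each state had 3 genotypes with 2 biological replicates, 12 samples in all. The control lacked KMT2C, KMT2C/D dKO cells lacked KMT2C and KMT2D, and KMT2C/D dCD cells carried catalytically dead forms of both. The study asked how these H3K4 methyltransferases bear on replication timing and origin firing. Every genotype, the control included, was thus without KMT2C activity, and no wild-type library was analysed here. In the dKO, KMT2D was deleted by hydroxytamoxifen-induced Cre in a KMT2C knockout line of mixed strain background, whereas the catalytic-dead line named in the methods (R1) was of another background, so genotype and line cannot be told apart between dCD and control. Each genotype was 1 line.

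Okazaki fragments are the short pieces in which the lagging strand is made, so the strand to which they map tells which way a fork moved. Around a place where forks often start, leftward forks prevail on the left and rightward forks on the right. Active protein-coding promoters, above all those in CpG islands, are known as preferred places of initiation in mammals, whereas many lincRNAs are transcribed at low levels from promoters poor in CpG dinucleotides. KMT2C and KMT2D place H3K4me1, a mark of enhancers.

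The promoters below show how far the members differ in sequence, from 250 bases before to 50 bases after the TSS (mm10, 5′ to 3′ on the strand of the gene), with each CpG in capitals. Gm20732 (chr15:68363127-68363426, minus strand) had the most CpG around its TSS, Gm26553 (chr3:96357045-96357344, minus strand) the highest and Gm27187 (chr9:36011509-36011808, minus strand) the lowest strand bias of all members with enough reads. Mir124a-1hg (chr14:64587081-64587380, plus strand), Pvt1 (chr15:62037736-62038035, plus strand) and Lncpint (chr6:31220439-31220738, minus strand) had the most CpG of the well-known lincRNAs named further on.
Gm20732: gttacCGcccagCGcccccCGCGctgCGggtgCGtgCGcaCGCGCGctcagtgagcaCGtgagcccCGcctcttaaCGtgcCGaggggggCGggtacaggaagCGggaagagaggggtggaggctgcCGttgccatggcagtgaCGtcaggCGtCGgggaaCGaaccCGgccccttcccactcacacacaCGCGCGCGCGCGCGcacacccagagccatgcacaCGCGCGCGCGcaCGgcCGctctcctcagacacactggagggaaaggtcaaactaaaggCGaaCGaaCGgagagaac
Gm26553: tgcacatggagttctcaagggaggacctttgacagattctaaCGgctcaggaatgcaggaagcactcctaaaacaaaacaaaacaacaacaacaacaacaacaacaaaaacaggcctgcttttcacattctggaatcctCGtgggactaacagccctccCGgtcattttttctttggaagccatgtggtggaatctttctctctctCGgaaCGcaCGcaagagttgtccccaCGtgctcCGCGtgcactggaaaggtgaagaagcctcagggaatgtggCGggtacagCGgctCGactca
Gm27187: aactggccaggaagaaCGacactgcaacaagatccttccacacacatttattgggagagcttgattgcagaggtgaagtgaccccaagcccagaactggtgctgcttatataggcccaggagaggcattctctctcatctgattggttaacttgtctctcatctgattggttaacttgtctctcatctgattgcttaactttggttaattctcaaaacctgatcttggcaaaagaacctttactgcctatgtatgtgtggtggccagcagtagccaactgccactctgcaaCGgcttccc
Mir124a-1hg: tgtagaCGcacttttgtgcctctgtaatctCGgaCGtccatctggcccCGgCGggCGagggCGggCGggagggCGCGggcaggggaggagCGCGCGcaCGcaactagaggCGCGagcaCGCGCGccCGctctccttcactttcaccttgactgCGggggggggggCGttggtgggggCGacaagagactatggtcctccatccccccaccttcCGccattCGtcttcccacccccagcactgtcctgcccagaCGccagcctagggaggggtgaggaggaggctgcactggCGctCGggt
Pvt1: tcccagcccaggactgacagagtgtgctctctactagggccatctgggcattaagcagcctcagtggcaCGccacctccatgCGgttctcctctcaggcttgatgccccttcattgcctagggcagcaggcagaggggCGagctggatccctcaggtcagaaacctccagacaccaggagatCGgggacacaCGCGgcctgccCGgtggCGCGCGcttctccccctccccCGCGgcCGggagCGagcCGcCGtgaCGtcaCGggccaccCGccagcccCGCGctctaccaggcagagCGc
Lncpint: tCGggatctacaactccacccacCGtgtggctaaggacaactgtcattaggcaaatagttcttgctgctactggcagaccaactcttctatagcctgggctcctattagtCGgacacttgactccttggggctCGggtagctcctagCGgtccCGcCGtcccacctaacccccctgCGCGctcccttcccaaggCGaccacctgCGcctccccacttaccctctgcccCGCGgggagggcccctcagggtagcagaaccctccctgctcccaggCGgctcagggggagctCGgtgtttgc
The stretch of Gm20732 held 39 CpG in 300 bases, that of Mir124a-1hg 28, Pvt1 22, Lncpint 15, Gm26553 12 and Gm27187 2. Within 500 bases on either side of the TSS, the members had a median of 10 CpG (0 to 146), compared with 49 at protein-coding TSSs that were themselves isolated and 5 at intergenic positions.

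The deposited tracks held 3655095 to 4409068 reads in the naive libraries and 11407678 to 13601460 in the EpiLC libraries, or 36.0 to 43.4 and 112 to 134 reads per 25 kb of autosome. Both replicates of a condition were summed in 1 track by the authors, so there is no replicate error. No test between genotypes within a state was possible, and each such difference is between 2 libraries. A test of state paired by genotype was not run. Strand bias is the Crick percentage (rightward forks) in a 25 kb window right of the TSS less the same percentage in the window left of it, in percentage points, with reads summed over sites. A positive value means that forks diverged from the site, for genes of either strand. Intervals in parentheses are 95% intervals (Wilson for a share, Newcombe for a difference) and cover counting error only, since PCR copies could not be told from separate molecules. They also leave out the spread between sites and count reads shared by neighboring TSSs more than once. OK-seq reads also followed base composition: bins richer in T than A had a higher Crick share, by 1.20 to 1.80 percentage points per point.

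Summed over all 2667 members, forks showed hardly any divergence at intergenic lincRNA promoters. Strand bias was 0.477 (0.0733 to 0.880) in naive control, 0.066 (-0.360 to 0.492) in naive dKO and 0.0561 (-0.382 to 0.494) in naive dCD cells. In EpiLCs it was -0.128 (-0.379 to 0.124) in control, -0.134 (-0.368 to 0.101) in dKO and -0.0565 (-0.285 to 0.172) in dCD cells. The interval lay above 0 in the naive control and included 0 in the other 5 libraries, but these calls moved with the setting. In windows of 50 kb on each side the direction turned in the naive control (-0.835, -1.12 to -0.549), and all 6 intervals lay below 0. Without the part that followed base composition (T minus A content) the naive control had 0.250 (-0.154 to 0.653), and the 3 EpiLC intervals lay below 0 (-0.261, -0.307 and -0.257 in control, dKO and dCD cells). Members over 100 kb from a protein-coding TSS had 0.300 (-0.203 to 0.802) in the naive control. In the naive control 49.3% of reads were Crick on the left and 49.8% on the right, from 118182 and 117854 reads.

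Isolated protein-coding promoters, more than 50 kb from any other protein-coding TSS and outside other protein-coding genes, had a strand bias of 8.52 (8.21 to 8.83), 8.50 (8.17 to 8.83) and 9.25 (8.90 to 9.59) in naive control, dKO and dCD cells, and of 5.72, 5.95 and 6.40 in EpiLCs. The 4247 sites of this kind exceeded the lincRNA promoters by far in every library. The lincRNA value minus theirs was -8.04 (-8.55 to -7.53) points in naive control and -5.85 (-6.16 to -5.53) in EpiLC control cells. T minus A content stepped by 2.81 percentage points across the isolated protein-coding TSSs and by 0.213 across the lincRNA TSSs. With the part that followed T minus A taken off, isolated protein-coding promoters kept 1.89 to 3.67 points over the 6 libraries, and the lincRNA promoters -0.307 to 0.250.

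Compared with positions that also lay over 50 kb from protein-coding TSSs, a small difference remained. On a grid of 30682 intergenic positions spaced 25 kb apart and over 50 kb from any lincRNA TSS, strand bias was negative, -0.687 (-0.823 to -0.552) in the naive control and -0.582 (-0.666 to -0.498) in the EpiLC control, so forks converged on average. lincRNA promoters exceeded this grid by 1.16 (0.739 to 1.59), 0.809 (0.360 to 1.26) and 0.944 (0.481 to 1.41) points in naive control, dKO and dCD cells, and by 0.454 (0.189 to 0.720), 0.470 (0.222 to 0.717) and 0.613 (0.373 to 0.854) in EpiLCs. All 6 intervals lay above 0 in 25 kb windows, but included 0 in EpiLC control cells with 50 kb (0.124, -0.0642 to 0.311) and in naive dCD cells with 10 kb on each side (0.545, -0.183 to 1.27). With the T minus A part off, the naive differences were 0.697, 0.5001 and 0.481, with intervals above 0, and the EpiLC differences were 0.168, 0.115 and 0.236, with intervals that included 0. With members and grid over 100 kb from protein-coding TSSs, the intervals of 4 of the 6 differences included 0.

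In 5 kb steps, the Crick share fell across the 100 kb around intergenic lincRNA promoters. In the naive control it went from 51.7% at the left edge to 49.2% in the 5 kb just left of the TSS, was 50.3% in the first 5 kb after it and 47.7% at the right edge. From the 5 kb left to the 5 kb right of the TSS the share went up in 4 of 6 libraries, but not in naive dCD (49.3% and 49.2%) or EpiLC dKO cells (50.2% and 50.1%). It went up in 2 of 6, naive control (49.6% and 49.9%) and naive dKO cells (49.4% and 49.7%), when corrected for T minus A content. When the same measure was taken 25 kb to the left of the TSSs, it was -1.27 (-1.67 to -0.865) in naive control and -0.890 (-1.14 to -0.639) in EpiLC control cells, and 25 kb to the right -1.36 (-1.76 to -0.955) and -0.880 (-1.13 to -0.628). The steps on either side were negative in all 6 libraries, against values near 0 at the TSS. At the intergenic grid the same measure was -0.687 in naive and -0.582 in EpiLC control cells, less negative than on either side of the TSSs. Corrected for T minus A content, the naive control had -0.781 on the left, 0.250 at the TSS and -0.667 on the right, whereas EpiLC dKO cells had -0.273, -0.307 and -0.238 and EpiLC dCD cells -0.306, -0.257 and -0.417, so the contrast was small or absent there. These windows overlap those at the TSS.

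**Figure D1:**
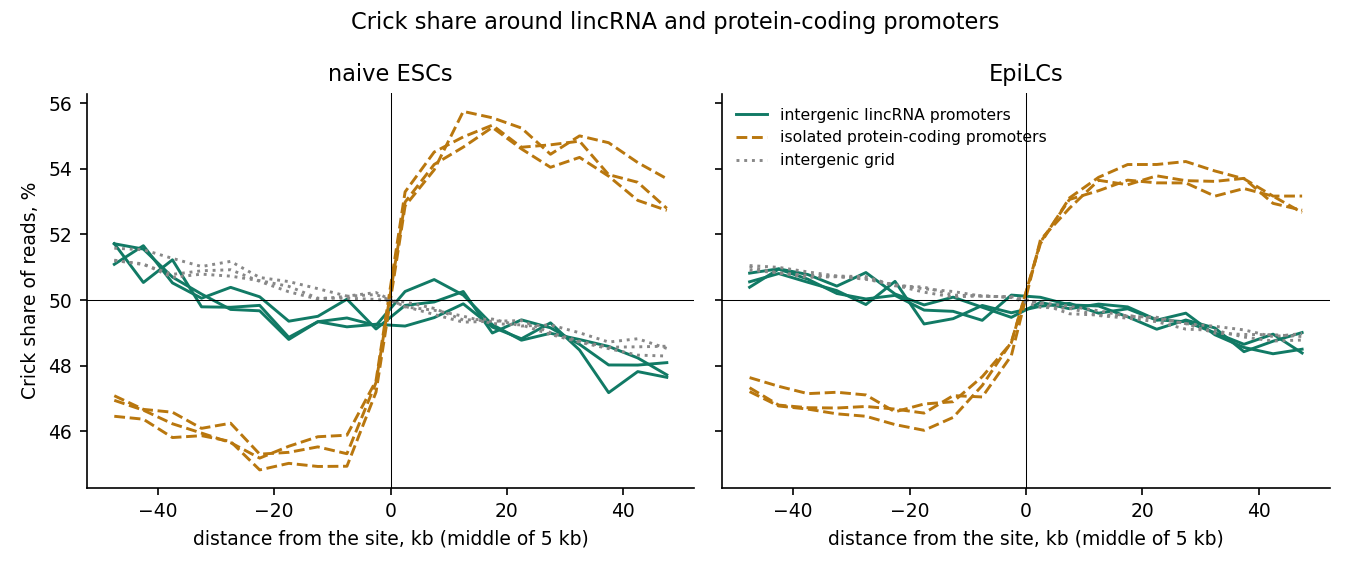
Crick share of reads (%, vertical axis) in 5 kb steps from 50 kb left to 50 kb right of the site, in genome coordinates, in naive ESCs and EpiLCs, with 1 line for each of the 3 genotypes. Isolated protein-coding promoters stepped up across the site (strand bias 8.52 in naive control), whereas lincRNA promoters (0.477) and the intergenic grid (-0.687) had no step of that size.

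Read in the direction of the gene, forks moved with lincRNA transcription slightly more often than against it on both sides of the TSS. In naive control cells 52.0% (51.7 to 52.3) of reads in the 25 kb upstream and 52.5% (52.2 to 52.8) in the 25 kb downstream came from codirectional forks, and in EpiLC control cells 51.7% and 51.6%. Upstream and downstream shares of lincRNA genes thus lay within 1 percentage point of each other. At isolated protein-coding genes the shares were 50.5% upstream and 58.8% (58.6 to 59.0) downstream in naive control cells, the latter 53.5% with the T minus A part off. Downstream of lincRNA TSSs, 51.0% to 52.0% remained over the 6 libraries with the T minus A part off.

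Among lincRNA promoters of any location, strand bias as counted fell with distance from protein-coding TSSs up to 50 kb. The 704 lincRNA TSSs within 5 kb of a protein-coding TSS, which the rule leaves out, had 7.44 (6.74 to 8.15) in naive control and 4.86 (4.42 to 5.31) in EpiLC control cells. At 5 to 25 kb (1034 TSSs) the values were 4.32 and 3.30, and at 25 to 50 kb (760 TSSs) 0.986 and 0.903. Corrected for T minus A content, these 3 classes had 3.76, 3.04 and 0.897 in naive and 2.47, 2.64 and 0.841 in EpiLC control cells, so the order of the nearest classes turned in EpiLCs. For the classes up to 25 kb the windows contain the protein-coding TSSs themselves. Members at 50 to 100 kb (868) had 0.796 (0.120 to 1.47) and 0.151 (-0.269 to 0.571), members at 100 to 250 kb (996) -0.0201 (-0.675 to 0.634) and -0.629 (-1.04 to -0.221), and members over 250 kb away (803) 0.763 (-0.0216 to 1.55) and 0.222 (-0.271 to 0.715). The interval of the 50 to 100 kb class in naive control cells included 0 after the correction (0.392, -0.284 to 1.07). Beyond 50 kb no steady order remained: the difference between the farthest and the nearest class was -1.15 to 0.103 over the 6 libraries, with 4 intervals that included 0.

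**Figure D2:**
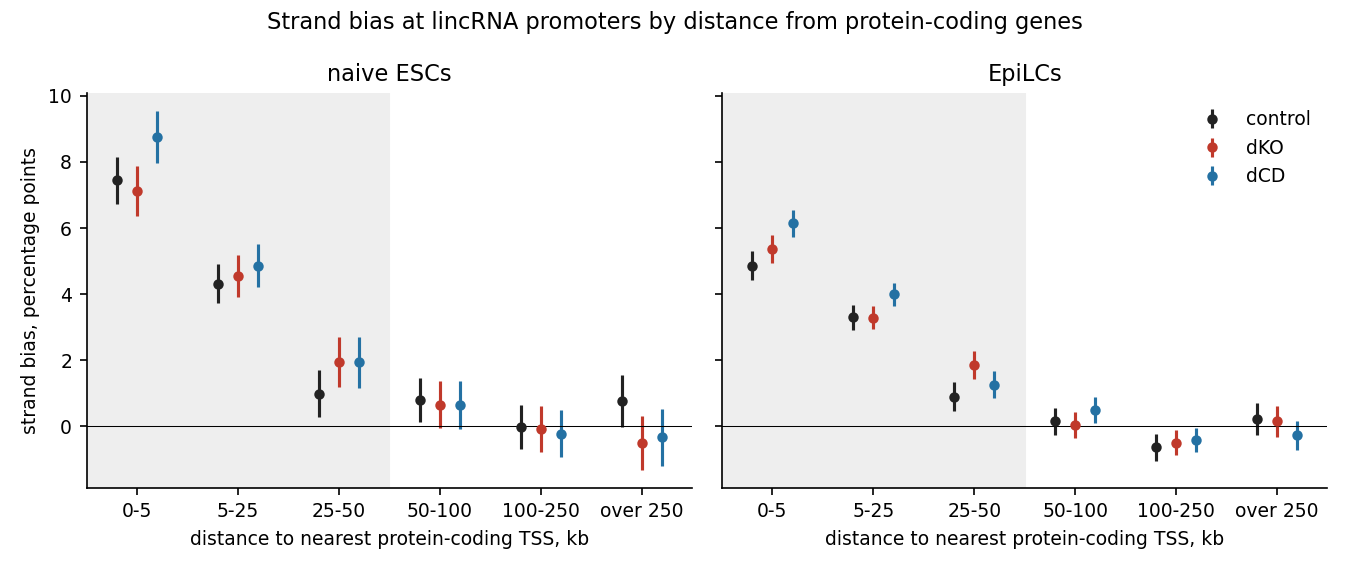
Strand bias (percentage points, vertical axis) at lincRNA promoters by distance to the nearest protein-coding TSS (kb), with points for control, dKO and dCD libraries and bars for 95% counting intervals. The shaded classes under 50 kb are not members and as counted reached 7.44 in naive control, whereas the 3 classes of members lay near 0.

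Of 4 features compared among the members (CpG number, distance, gene length and neighboring lincRNAs), CpG number came with the widest span of strand bias in the naive control. In the lowest quartile of CpG number (0 to 6 within 500 bases, 667 TSSs) strand bias was -1.14 (-1.996 to -0.290), -0.653 (-1.55 to 0.243) and -1.93 (-2.86 to -0.994) in naive control, dKO and dCD cells. In the highest quartile (16 to 146, 666 TSSs) it was 1.91 (1.12 to 2.69), 1.29 (0.460 to 2.12) and 1.80 (0.955 to 2.65). In EpiLCs the highest quartile had 0.386 (-0.105 to 0.876), 0.929 (0.474 to 1.38) and 0.625 (0.177 to 1.07). The highest quartile exceeded the lowest in all 6 libraries, by 3.05 (1.89 to 4.21), 1.94 (0.722 to 3.17) and 3.73 (2.47 to 4.99) in naive and by 0.977 (0.255 to 1.70), 1.999 (1.32 to 2.67) and 0.959 (0.305 to 1.61) in EpiLC control, dKO and dCD cells. The EpiLC control interval included 0 with 10 kb windows (0.474, -0.664 to 1.61) and over 100 kb from protein-coding TSSs (0.883, -0.0109 to 1.78). Less the T minus A part, the differences ranged from 0.389 to 2.90 and 3 of 6 intervals included 0.

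The 58 members with at least 40 CpG had the highest strand bias of the CpG classes in every library as counted. It was 6.57 (3.85 to 9.29), 5.79 (2.93 to 8.63) and 4.06 (1.08 to 7.04) in naive control, dKO and dCD cells, and 2.06 (0.355 to 3.76), 4.72 (3.15 to 6.29) and 2.45 (0.873 to 4.03) in EpiLCs. Even so, the 2429 isolated protein-coding promoters with at least 40 CpG were higher, with 11.6 (11.2 to 11.95) in naive control and 7.37 (7.13 to 7.61) in EpiLC control cells. In each of 4 CpG classes and all 6 libraries the lincRNA value was below the protein-coding value, with intervals of the difference below 0. With the T minus A part off, lincRNA and protein-coding promoters with 0 to 9 CpG differed by -0.803 to 0.0441, with 6 of 6 intervals including 0, whereas 3 of 6 intervals lay below 0 with 10 to 19 CpG, 5 of 6 with 20 to 39 CpG, and 3 of 6 with at least 40 CpG (-3.14 to -0.374). The lincRNA promoters with at least 40 CpG themselves had 0.0177 to 3.34 points with it off, with 3 of 6 intervals including 0, and in EpiLC dCD cells were then below the class of 20 to 39 CpG (0.238). The gap between lincRNA and protein-coding promoters was therefore smaller in each CpG class once the part that followed base composition was off. Whether the part taken off also held true fork divergence was not tested.

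**Figure D3:**
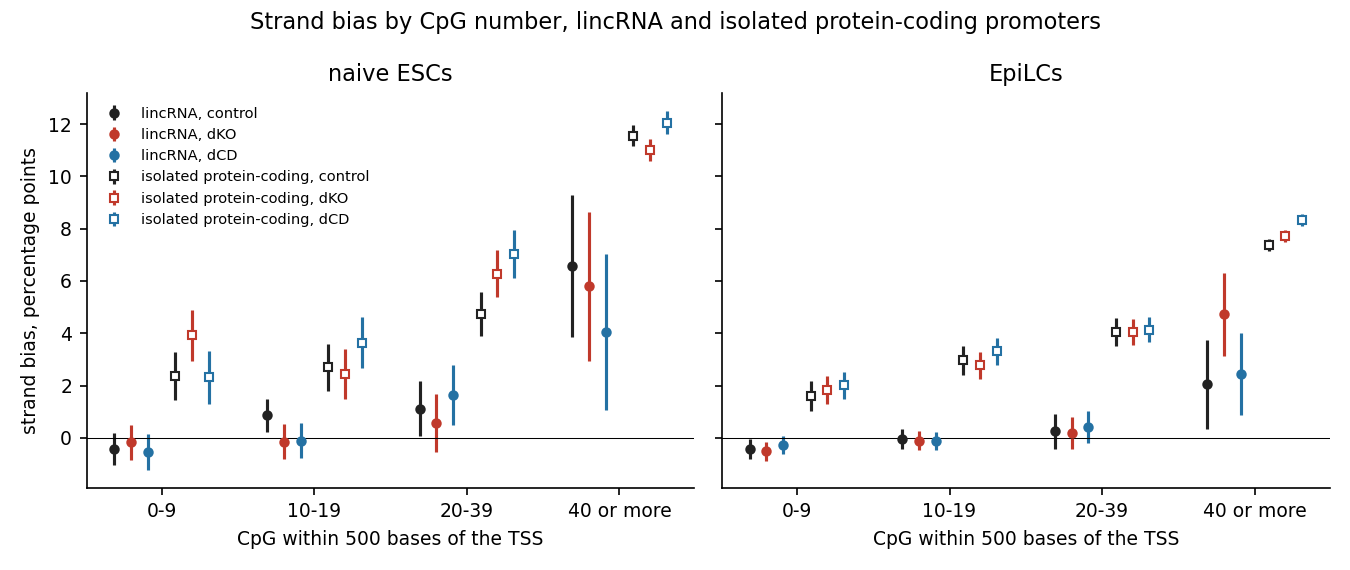
Strand bias (percentage points, vertical axis) by number of CpG within 500 bases of the TSS, for intergenic lincRNA promoters (filled circles) and isolated protein-coding promoters (open squares) in control, dKO and dCD libraries, with 95% counting intervals. As counted, lincRNA promoters rose above 0 mainly at 40 or more CpG (6.57 in naive control) and stayed below protein-coding promoters of the same class.

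Longer lincRNA genes had slightly higher values. Genes of at least 10 kb (1391) exceeded shorter ones (1276) by 1.10 (0.293 to 1.91), 1.94 (1.08 to 2.79) and 1.52 (0.639 to 2.39) points in naive control, dKO and dCD cells, and by 0.815 (0.312 to 1.32), 1.04 (0.573 to 1.51) and 0.348 (-0.109 to 0.804) in EpiLCs. This difference shrank to between -0.299 and 1.14 with the T minus A part off, with 1 of 6 intervals above 0. Members with another lincRNA TSS within 50 kb (1135) differed from the 1532 without one by -0.862 to -0.0514 over the 6 libraries, and 5 of 6 intervals included 0.

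Between KMT2C/D mutant and control libraries, intervals of the difference in 25 kb windows included 0 over the intergenic lincRNA promoters, whereas naive dCD cells were below control in other windows. Compared with control, strand bias differed by -0.411 (-0.997 to 0.176) in dKO and -0.421 (-1.02 to 0.175) in dCD naive ESCs, and by -0.00599 (-0.350 to 0.338) and 0.0712 (-0.268 to 0.411) in EpiLCs. In naive dCD cells the difference was -0.992 (-1.93 to -0.0563) with 10 kb and -0.475 (-0.897 to -0.0524) with 50 kb on each side, so the call depended on the window. The grid shared most of the 50 kb difference: the excess over it was 0.532 in naive control and 0.516 in naive dCD cells. With 10 kb the excess was 1.3 and 0.545. Whether the excess differed between these libraries was not tested. Both mutants were compared with the same control library. By CpG quartile, 15 of 16 such intervals included 0, and the exception was dKO in the third quartile of naive ESCs (-1.22, -2.36 to -0.0806; with the T minus A part off -1.10, -2.24 to 0.0348).

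From naive ESCs to EpiLCs strand bias at lincRNA promoters changed by -0.605 (-1.08 to -0.129) in control, -0.200 (-0.686 to 0.286) in dKO and -0.113 (-0.607 to 0.381) in dCD cells. With 50 kb windows the change was 0.332 in dKO and 0.472 (0.122 to 0.822) in dCD cells, so it turned in both. The grid shared this turn: the excess over it went from 0.369 to 0.374 in dKO and from 0.516 to 0.475 in dCD cells. In control cells the excess went from 0.532 to 0.124. The control interval included 0 with these windows (-0.176, -0.513 to 0.160), with means over sites (-0.474, -0.956 to 0.00870) and over 100 kb from protein-coding TSSs (-0.583, -1.18 to 0.00982). Isolated protein-coding promoters had lower values in EpiLCs, with changes of -2.80 (-3.16 to -2.43), -2.55 (-2.92 to -2.17) and -2.85 (-3.23 to -2.46) points, or -0.993, -1.39 and -1.42 with the T minus A part off. Fork direction as a whole also varied less in EpiLC libraries, where the Crick percentage of 50 kb bins had an SD, freed of counting error, of 9.71 to 12.3 points against 12.6 to 16.5 in naive libraries. In the highest CpG quartile of the lincRNA promoters the change was -1.52 (-2.45 to -0.598) in control, -0.361 (-1.31 to 0.586) in dKO and -1.18 (-2.14 to -0.219) in dCD cells. In the lowest quartile it was 0.552 (-0.453 to 1.56), -0.416 (-1.44 to 0.609) and 1.59 (0.545 to 2.64), the last being 1.35 (0.306 to 2.40) with the T minus A part off, and in both middle quartiles all intervals included 0.

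**Figure D4:**
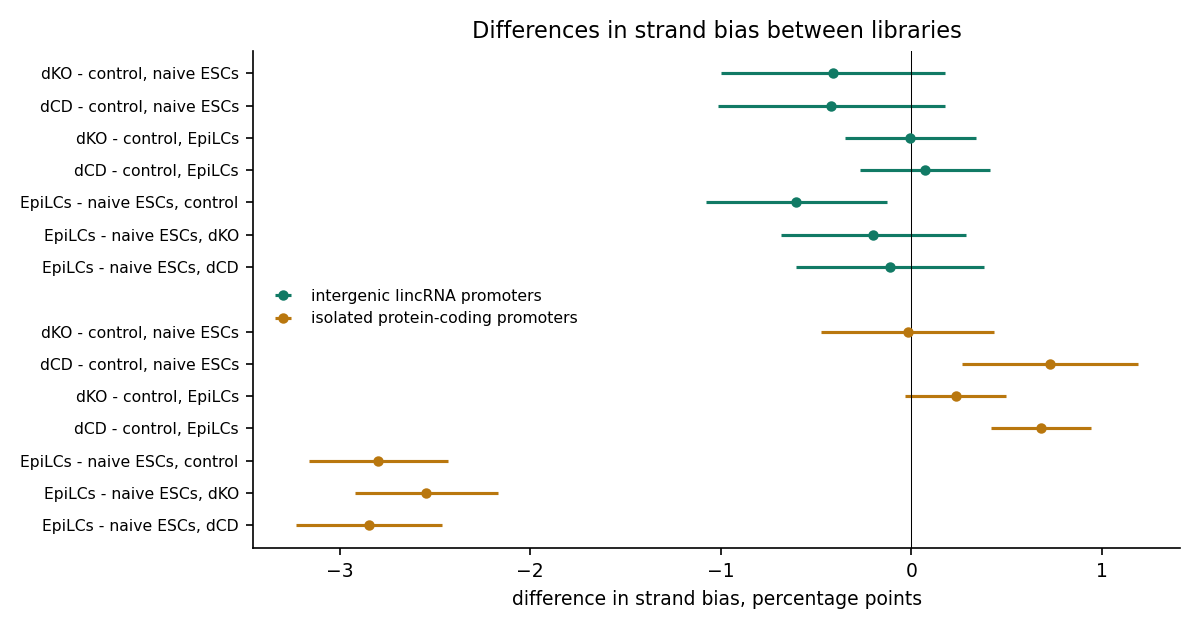
Differences in strand bias (percentage points, horizontal axis) between libraries, mutant minus control and EpiLCs minus naive ESCs, at intergenic lincRNA promoters (green) and isolated protein-coding promoters (ochre), with 95% counting intervals. In these 25 kb windows all 4 mutant intervals of lincRNA promoters include 0, and of the state differences only that of the control (-0.605) does not.

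By autosome lincRNA strand bias itself showed no common direction, whereas its excess over the intergenic grid was above 0 on most autosomes in every library. In the naive control lincRNA strand bias was above 0 on 13 of 19 autosomes, with a median of 0.728 (-3.92 to 2.08), and in the other 5 libraries on 6 to 9. The excess over the intergenic grid of the same autosome was above 0 on 15 of 19 in the naive control and on 12 to 14 in the other libraries. The highest CpG quartile was above 0 on 16, 13 and 16 of 19 autosomes in naive control, dKO and dCD cells and on 12, 13 and 10 in EpiLCs.

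Single lincRNA promoters, however, varied widely around 0, though as counted less than intergenic grid positions. With the 3 libraries of a state summed and at least 30 reads on each side, 2611 members could be measured in naive ESCs. Their median was -0.189, with 5% below -16.0 and 5% above 17.5. The SD over these sites was 10.3 in naive ESCs, against 6.34 from counting alone, and 6.73 against 3.69 over the 2641 members with enough reads in EpiLCs. Intergenic grid positions spread more, with SDs of 11.6 against 7.01 from counting in naive ESCs and 7.66 against 4.03 in EpiLCs. The spread at both kinds of site exceeded counting error, and the part of PCR copies in it was not tested. Across 2611 sites with enough reads in both states, naive and EpiLC values had a Pearson r of 0.620 and a Spearman rho of 0.571, and 70.5% had the same sign. The intergenic grid gave 0.641 and 0.606, so this likeness, between libraries that share base composition and the windows of neighboring sites, was no stronger at lincRNA promoters.

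A strand bias of at least 10 points in both states was reached by 120 of 2611 lincRNA promoters (4.60%), against 4.97% of 27588 intergenic grid positions and 6.21% of 93456 positions on all autosomes. Values of -10 or less in both states were found at 82 members (3.14%), against 6.42% of the intergenic grid and 5.04% of all autosomal positions. As counted, high values were thus about as frequent as at intergenic background, and low values were less frequent. Isolated protein-coding promoters reached 10 points in 22.8% of 4072 sites, and in 4.13% with the T minus A part off. The 120 high members lay in 105 groups of neighboring TSSs and had a median of 13 CpG, against 9 at the 82 low members. T minus A content stepped by a median of 4.14 percentage points across the high and -5.79 across the low members, and by 0.048 across the others. After removal of the T minus A part this order turned: 41 members (1.57%, 1.16 to 2.12) were at 10 points or more, against 0.486% (0.410 to 0.575) of the intergenic grid and 1.88% of all autosomal positions. Low values were then found at 8 members (0.306%, 0.155 to 0.603), against 0.431% (0.361 to 0.516) and 0.514%. Of members with at least 40 CpG, 8 of 53 (15.1%, 7.85 to 27.1) were high, compared with 698 of 2418 (28.9%) of the protein-coding promoters of that class, and 1 of 53 (1.89%) against 129 of 2418 (5.33%) with the T minus A part off.

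Members were ranked by the strand bias of all 6 libraries summed, among those with at least 100 reads on each side, so the values at both ends are a description. Gm26553 was first, with 30.6 (21.2 to 38.7), followed by Platr30 and Zfp813-ps (both 29.5), Gm44738 (27.8), Gm48829 (26.1) and Gm14243 (25.01). Gm44738, on chr7 with its TSS at 73627435 and 85.6 kb from Chd2, was the best measured of them. Its strand bias was 28.1, 27.9 and 26.1 in naive control, dKO and dCD cells and 28.5, 26.2 and 28.7 in EpiLCs. All 6 values lay between 26.1 and 28.7, and 20.4 points of the sum remained with the T minus A part off. Gm26553 and Platr30 are not independent, as their TSSs on chromosome 3 lie 11.8 kb apart, and their reads were uneven, with 119 on the right and 916 on the left of Platr30. At Zfp813-ps 3.15 points remained with the T minus A part off, and at Gm48829 7.99.

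At the other end, Gm27187 had -31.0 (-38.9 to -22.4), with -41.4, -43.4 and -19.7 in naive control, dKO and dCD cells and -27.2, -30.9 and -32.5 in EpiLCs. All 6 values were negative, as the choice by their sum favors, and the interval of naive dCD cells (-45.9 to 9.36) included 0. Gm48399 (174 kb from Nr2f1) followed with -28.2 (-34.9 to -21.1), then Gm29088 (-26.2), Gm39473 (-23.7), A330087D11Rik (-22.4) and Gm45703 (-19.5). With the T minus A part off, the 6 values lay between -8.02 and -3.79.

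The 6 members with the most CpG were Gm20732 (146), AL805899.1 (109), Gm40849 (99), E130102H24Rik (98), Gm5784 (98) and Gm49700 (97). Gm20732, 104 kb from Zfat, was high in every library, with 41.4, 29.9 and 27.1 in naive control, dKO and dCD cells and 15.1, 17.5 and 21.5 in EpiLCs. Its sum was 21.7 (15.5 to 27.6), of which 10.8 remained with the T minus A part off. E130102H24Rik had 11.9 (6.47 to 17.3), or 3.96 when corrected. AL805899.1 had -1.10 (-6.66 to 4.49), or -6.10 when corrected. Gm40849, Gm5784 and Gm49700, all on chromosome 12, had 17 to 73 reads on a side and intervals that included 0.

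Of a list of well-known lincRNAs, 18 were members. The largest group was that of pluripotency-associated transcripts, with 9 Platr genes, named for their expression in ESCs, and Lncenc1, a lincRNA of naive ESCs. Platr2 had 6 reads on the right and 10 on the left in all libraries together and was not measurable. Of the other 9, 7 were above 0 in naive ESCs, with a median of 9.62 (-4.31 to 53.0), against -0.189 over all members, and 6 were above 0 in EpiLCs, with a median of 4.56 (-2.92 to 21.6), against -0.418. Over all members 1283 and 1237 of 2611 were above 0. Of the 9, 2 reached 10 points in both states, Platr30 and Platr19, against 120 of 2611 members (4.60%).

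Platr10 had 22.9, 26.5 and 14.7 in naive control, dKO and dCD cells and 8.63, 2.04 and -0.460 in EpiLCs. The 3 naive values were all above the 3 EpiLC values, and the summed value was lower in EpiLCs, with a difference of -18.3 (-32.05 to -3.79) points. Platr4 had 24.95, 16.5 and 3.51 in naive ESCs and -3.38, -7.26 and 3.04 in EpiLCs, with a difference of -16.96 (-28.5 to -5.27). Every naive value of Platr4 was again above every EpiLC value, but those of dCD cells were nearly equal. Their intervals were -12.2 to 19.2 in naive ESCs and -6.52 to 12.5 in EpiLCs. Platr30, 51.3 kb from Fcgr1, had 58.6, 39.3 and 73.3 in naive ESCs, from 7 to 14 reads on the right in each library, and 5.46, 36.4 and 20.98 in EpiLCs. Platr19, 153 kb from Mycn, was positive in all 6 libraries, with 11.9 (2.64 to 20.9) in naive ESCs and 15.8 (10.1 to 21.4) in EpiLCs. Platr13 had -0.919 (-13.96 to 11.9) in naive ESCs and 12.4 (5.07 to 19.5) in EpiLCs. Of the 8 Platr promoters measured, 5 had lower values in EpiLCs, against 1354 of 2611 members, and the interval of the difference lay below 0 for 3 of them (Platr30, Platr10 and Platr4) and included 0 for the other 5 Platr genes. Over all members with enough reads such an interval lay below 0 at 100 of 2611 (3.83%), and at 3.66% of intergenic grid positions.

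Summed over the 9 Platr promoters, strand bias was 16.9 (10.4 to 23.2), 14.9 (7.57 to 22.1) and 6.40 (-0.836 to 13.6) in naive control, dKO and dCD cells, and 5.86 (1.72 to 9.97), 2.52 (-1.39 to 6.42) and 7.27 (3.50 to 11.01) in EpiLCs. EpiLC minus naive differences were -11.02 (-18.5 to -3.35), -12.4 (-20.5 to -4.08) and 0.868 (-7.23 to 9.02). The decrease was thus beyond counting error in control and dKO cells and was not seen in dCD cells, but the difference between genotypes was not tested. Lncenc1, which these sums leave out, had a difference of 8.87 (-3.92 to 21.5), and with it the naive values were 12.9 (6.84 to 18.8), 13.3 (6.27 to 20.1) and 6.58 (-0.244 to 13.3) and the differences -7.34 (-14.4 to -0.179), -10.4 (-18.2 to -2.55) and 0.619 (-7.01 to 8.30). Without Platr30 the differences were -9.44 (-17.3 to -1.43), -11.1 (-19.7 to -2.30) and 4.46 (-4.17 to 13.1), and the naive values were 15.1 (8.31 to 21.6), 11.6 (3.87 to 19.2) and 1.18 (-6.48 to 8.83). With the T minus A part off, the differences over all 9 were -11.2 (-18.7 to -3.50), -12.2 (-20.4 to -3.92) and 1.21 (-6.88 to 9.36). Expression of these genes was not analysed here.

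**Figure D5:**
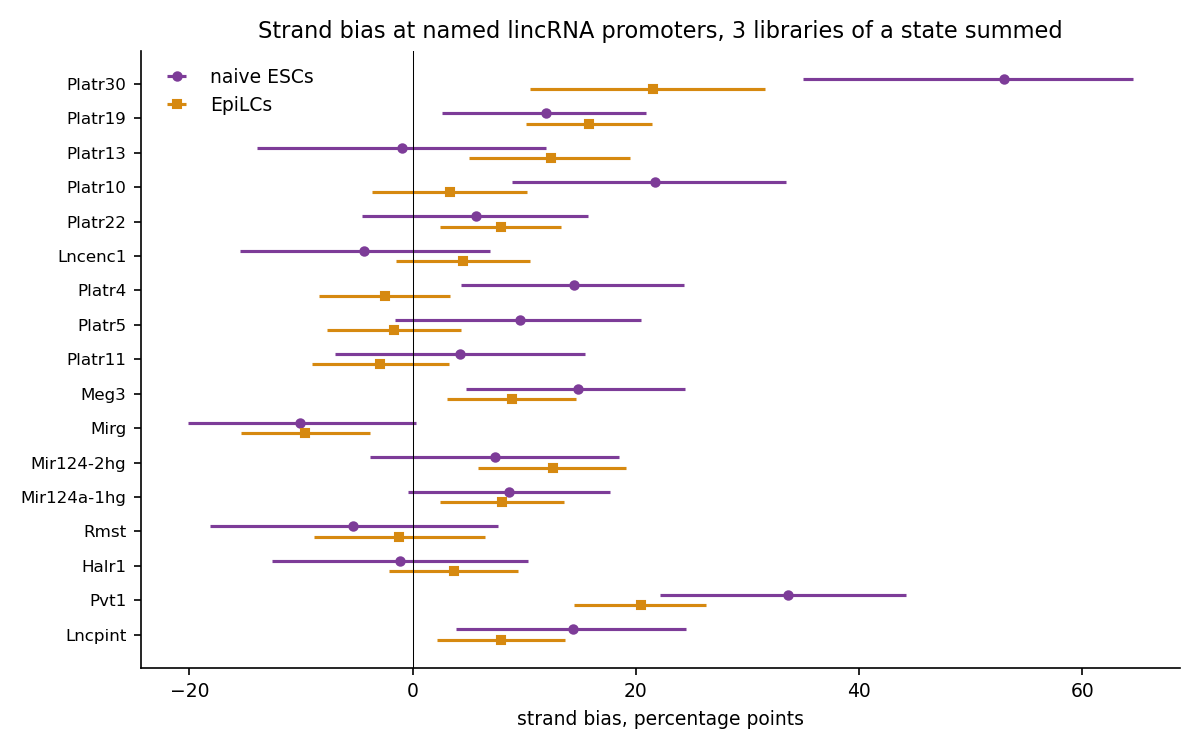
Strand bias (percentage points, horizontal axis) at 17 named lincRNA promoters, with the 3 libraries of a state summed, in naive ESCs and EpiLCs with 95% counting intervals. Pvt1 (33.6 and 20.5) and Platr30 (52.97 and 21.6) lay to the right in both states, and Mirg (-10.1 and -9.63) to the left in both.

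Among the named lincRNAs outside the Platr group, Pvt1 had the highest value. Its TSS lies 50.6 kb from that of Myc, with which it is often amplified in tumors. Strand bias at Pvt1 was 30.0, 42.2 and 28.7 in naive control, dKO and dCD cells and 19.1, 21.4 and 20.9 in EpiLCs. The interval lay above 0 in all 6 libraries, and naive values were above EpiLC values in each genotype, with a difference of the sums of -13.1 (-25.3 to -0.263) points. The sum over 6 libraries was 23.8 (18.5 to 28.9), rank 8 among the members, and 12.2 points remained with the T minus A part off. Lncpint, a lincRNA induced by p53, had 21.95, 23.6 and 0.365 in naive ESCs and 18.4, 0.236 and 6.02 in EpiLCs. All 6 values of Lncpint were above 0, although those of naive dCD and EpiLC dKO cells were close to it, and 5.96 of 9.47 points of the sum remained with the T minus A part off.

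The imprinted lincRNAs Meg3 and Mirg, both transcribed from the maternal allele of the same cluster, had opposite signs. Meg3 had 12.5, 7.38 and 23.99 in naive control, dKO and dCD cells and 11.97, -6.13 and 17.5 in EpiLCs, and its interval over the summed libraries lay above 0 in both states. Mirg, which lies downstream, had -14.4, -4.47 and -13.8 in naive ESCs and -4.08, -4.10 and -17.4 in EpiLCs. In single libraries the interval lay above 0 at Meg3 in 3 of 6 and below 0 at Mirg in 1, EpiLC dCD cells, while the sum over 6 libraries was 10.3 (5.34 to 15.3) at Meg3 and -9.89 (-14.9 to -4.85) at Mirg. Of the sums over 6 libraries, 6.46 remained at Meg3 and -4.16 at Mirg with the T minus A part off. Reads of the parental alleles cannot be told apart in these tracks.

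Of the 3 neural lincRNAs, both hosts of the neuronal microRNA miR-124 were positive in each state's sum, with naive intervals that included 0. Mir124-2hg had 7.34 (-3.78 to 18.5) in naive ESCs and 12.6 (5.84 to 19.2) in EpiLCs. Mir124a-1hg, with 72 CpG around its TSS, had 8.64 (-0.398 to 17.7) and 8.01 (2.43 to 13.6), but was negative in EpiLC control cells (-3.97, -14.3 to 6.72). Over 6 libraries, 5.57 of 11.5 points remained at Mir124-2hg and 7.59 of 8.21 at Mir124a-1hg with the T minus A part off. Rmst, a lincRNA of neuronal differentiation, had -5.36 (-18.2 to 7.62) and -1.22 (-8.84 to 6.47). Halr1, next to the Hoxa genes, had -1.15 (-12.6 to 10.3) and 3.67 (-2.12 to 9.42), and Lncenc1 -4.31 (-15.5 to 6.97) and 4.56 (-1.46 to 10.5). At this depth a strand bias at Rmst, Halr1 or Lncenc1 was not detectable.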

How the data were processed

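OK-seq reads of 2 replicates per condition were aligned to mm10 with Bowtie2 and summed by the authors, who deposited Watson and Crick signal per 1 kb bin in reads per bp, so that 1 read was 0.001. Values were multiplied by 1000, which gave whole reads in each of 2725511 bins per library. Positions were read as bin ends, since 74135 bins of N alone then held 0 reads (3760 if read as starts). Bins above 10 times the median of 20 reads (83) were left out. TSSs came from GENCODE M21. Crick shares were compared between 25 kb windows in Python 3.11.15 (numpy 2.4.6, scipy 1.17.1, pandas 2.3.3) with scripts tested on simulated data. The T minus A part is the slope of Crick share on T minus A content among neighboring bins. Named were the 6 highest and 6 lowest members with at least 100 reads on each side, the 6 with the most CpG, and the listed lincRNAs. Promoter sequences were read by coordinates from the RefSeq copy of the same build. Members, lists and tests were chosen with earlier results of these data known, and the CpG classes, the Platr sum without Platr30, the share of sites with a changed state and the T minus A correction of splits, lists and calls after seeing these values.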

Additional observations from a re-analysis of the deposited data

How the results depend on the processing

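By replicate, no paired analysis was possible because both replicates of a condition were summed in the deposited tracks, and for the same reason no replicate could be left out. The states could be paired by genotype, but that test was not run. No interval of the 21 results changed its side of 0 with 1 TSS per chain of neighbors or with no bins left out, nor did those of the 7 differences divided by the amplitude of fork direction. With means over sites 1 did, that of the control from naive to EpiLC (-0.474, -0.956 to 0.00870). With 10 kb on each side, strand bias was 1.10 in naive control, 0.209 in EpiLC control and 0.198 in EpiLC dKO cells, the dCD minus control difference in naive ESCs fell below 0 (-0.992, -1.93 to -0.0563), and the intervals of the naive dCD excess over the grid (0.545) and of the EpiLC control CpG quartile difference (0.474) included 0. With 50 kb it reversed to -0.835 in the naive control and was -1.15 and -1.31 in naive dKO and dCD and -1.01, -0.814 and -0.837 in EpiLC control, dKO and dCD cells; the change from naive to EpiLC was -0.176 (-0.513 to 0.160) in control, 0.332 in dKO and 0.472 (0.122 to 0.822) in dCD cells, dCD minus control in naive ESCs was -0.475 (-0.897 to -0.0524), and the excess over the grid 0.532 in naive and 0.124 (-0.0642 to 0.311) in EpiLC control cells. With the T minus A part off, the excess over the grid was 0.697 and 0.481 in naive control and dCD and 0.168, 0.115 and 0.236 in EpiLC control, dKO and dCD cells, and the CpG quartile difference was 1.82 in the naive and 0.389 (-0.333 to 1.11) in the EpiLC control. With members over 100 kb from a protein-coding TSS (1799), EpiLC dCD cells had a strand bias of -0.353, and intervals came to include 0 for the excess over the grid in naive dKO (0.434), naive dCD (0.547), EpiLC control (0.241) and EpiLC dCD cells (0.291), for the CpG quartile difference in EpiLC control (0.883), for strand bias in naive control (0.300) and for its change to EpiLCs (-0.583). The causes of these changes were not tested. Naive libraries held fewer reads than EpiLC libraries, so single promoters were measured with wider intervals there.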
